A study of Rattus norvegicus with 18 samples.

Results

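The 10 genes described here encode 4 ligand subunits of the transforming growth factor β (TGF-β) superfamily (Tgfb1, Tgfb2, Tgfb3 and Inhba), the receptors Tgfbr1 and Tgfbr2, the intracellular mediators Smad2 and Smad3, their inhibitor Smad7, and Tgfbi, a secreted protein whose gene is a known target of TGF-β. They were taken by symbol from the count tables, in which all 10 are listed among 17307 gene symbols in astrocytes and 17327 in microglia. RNA was sequenced from primary astrocytes and microglia prepared from the cortex of neonatal Sprague-Dawley rats at postnatal day 2, with WT as the stated genotype. Microglia were shaken off mixed glial cultures and astrocytes were the cells that stayed attached, so that each culture can hold some cells of other types. Each cell type was kept in serum-free medium for 24 h without fibrils (control), with Aβ42 fibrils or with Aβ40 fibrils, both at 25 µM, and each of the 6 groups has 3 libraries. The comparisons ask how each form of amyloid-β fibril changes the RNA of each cell type, and whether the forms and the cell types differ.

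TGF-β is secreted in a latent complex, held by latent TGF-β binding proteins, and is set free by integrins and proteases. The active ligand binds TGFBR2, which recruits and phosphorylates TGFBR1, and TGFBR1 phosphorylates SMAD2 and SMAD3, which enter the nucleus with SMAD4. Activin A, a dimer of the subunit encoded by Inhba, reaches the same SMADs through receptors of its own, and SMAD7 is induced by the pathway and blocks the receptors. In the brain, microglia are known to need TGF-β to keep their resting gene expression, and astrocytes are known both to release and to respond to it.

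The counts on genes were 3674043, 3949126 and 13768995 in the astrocyte control libraries, 14839572, 10120352 and 8333014 with Aβ42, and 9574779, 19013919 and 15302150 with Aβ40. In microglia they were 8249339, 5098145 and 6648595 in controls, 2613723, 22274367 and 17687416 with Aβ42, and 4104702, 4425805 and 2271834 with Aβ40. Levels are given as scaled CPM on 1 scale for all 18 libraries, and 3 counts, taken as the detection limit, correspond to 0.148 to 1.52 CPM depending on the library. Fold changes between treatments come from a fit of the 9 libraries of 1 cell type and are given as log2 with the standard error (SE). Differences between cell types come from a fit of all 18 libraries. A gene is called higher or lower at an adjusted p under 0.05, at any fold. The labels do not say whether replicates came from separate cultures, so the p-values measure only the spread between these libraries, which may be technical. A permutation of 3 against 3 libraries could not give an exact p below 0.1, and the tests rest on the spread shared across genes.

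Libraries that stand apart affect some of these results. Microglia Aβ42 replicate 1, with the lowest depth of its group, had a mean correlation of log2 CPM of 0.961 with its own group and 0.978 with the Aβ40 libraries. Its 2613723 counts lie within the range of the microglia Aβ40 libraries (2271834 to 4425805), and the other Aβ42 libraries had 22274367 and 17687416. Depth thus largely runs with fibril in microglia, and its part in this likeness and in the fibril comparison was not tested. Whether replicate 1 was mislabelled or treated in another way cannot be told from the data, and every microglia Aβ42 mean and comparison holds this doubt. Astrocyte control replicate 2 had a mean correlation of 0.947 with the other controls, against 0.965 and 0.964 for replicates 1 and 3. Across groups, deviations from the group mean were alike in astrocyte control 2 and Aβ42 3 (r of 0.53), control 2 and Aβ40 1 (0.49), and Aβ42 3 and Aβ40 1 (0.51), and also in Aβ42 1 and Aβ40 2 (0.49) and control 1 and Aβ42 1 (0.36), and the cause was not tested. Calls of the 10 genes that change without microglia Aβ42 replicate 1 or astrocyte control replicate 2 are given with the gene.

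RefSeq promoter windows of assembly GRCr8, which run from 250 bases before to 50 bases after the start of the transcript, matched all 10 genes, with 11 windows because Smad2 has 2. The windows were searched on both strands for CAGAC, the short SMAD-binding element, for GTCTAGAC, its paired form, for TGANTCA, an element of AP-1 factors, and for TGACGTCA, the cyclic AMP response element. CAGAC was found in 1 of the 11 windows, that of Inhba, and in 50.1% of all 33469 windows of 300 bases in the table. None of the 11 windows holds GTCTAGAC (0.197% of all windows), TGANTCA (7.33%) or TGACGTCA (1.83%). The match in the Inhba window begins 2 bases before the start. A match describes the letters of a window and does not show binding. The windows of Inhba, Tgfbr1 and Smad3 are shown as examples, with any match in capitals. In the results that follow, these genes were called in microglia with both fibrils, as were Tgfbr2 and Smad7. Tgfbi had larger changes in astrocytes than Tgfbr1 or Smad3 had in either cell type. The share of G and C is 45.7% for Inhba, 74.7% for Tgfbr1 and 69.7% for Smad3, against a median of 51.7% over all windows.
Inhba (chr17:53804459-53804758, minus strand): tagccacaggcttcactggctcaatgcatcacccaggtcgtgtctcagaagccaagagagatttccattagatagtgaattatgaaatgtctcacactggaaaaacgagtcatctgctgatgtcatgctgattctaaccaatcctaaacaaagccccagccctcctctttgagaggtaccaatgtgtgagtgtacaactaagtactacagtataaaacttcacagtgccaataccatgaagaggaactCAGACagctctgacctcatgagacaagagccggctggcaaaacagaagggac
Tgfbr1 (chr5:66449148-66449447, plus strand): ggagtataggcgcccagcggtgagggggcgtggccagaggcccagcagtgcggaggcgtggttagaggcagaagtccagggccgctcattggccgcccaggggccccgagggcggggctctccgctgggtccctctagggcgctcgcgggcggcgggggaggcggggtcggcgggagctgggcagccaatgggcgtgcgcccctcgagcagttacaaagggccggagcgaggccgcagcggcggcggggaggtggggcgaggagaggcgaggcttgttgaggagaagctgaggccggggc
Smad3 (chr8:73132275-73132574, minus strand): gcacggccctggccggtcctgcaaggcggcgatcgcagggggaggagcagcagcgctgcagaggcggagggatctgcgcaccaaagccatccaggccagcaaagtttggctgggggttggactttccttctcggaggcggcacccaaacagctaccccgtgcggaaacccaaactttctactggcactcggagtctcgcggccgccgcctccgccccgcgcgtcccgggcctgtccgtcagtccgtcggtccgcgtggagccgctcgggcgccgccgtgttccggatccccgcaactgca

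Both fibrils were followed by lower RNA of the receptors Tgfbr1 and Tgfbr2 and higher RNA of Smad3 and Smad7 in microglia. In astrocytes, Smad3 rose with both fibrils, Tgfb1 and Tgfbi fell with both, and neither receptor was called. With Aβ42 in microglia, 3 of the 10 genes were higher (Inhba, Smad3 and Smad7) and 3 lower (Tgfb3, Tgfbr1 and Tgfbr2), where 27.1% and 26.6% of the 10837 genes tested were called higher and lower. With Aβ40 in microglia, 4 were higher (Tgfb2, Inhba, Smad3 and Smad7) and 3 lower (Tgfb1, Tgfbr1 and Tgfbr2), against 19.6% and 21.4% of all genes. With Aβ42 in astrocytes, 2 were higher (Inhba and Smad3) and 2 lower (Tgfb1 and Tgfbi), against 16.5% and 20.4% of 11690 genes. With Aβ40 in astrocytes, 1 was higher (Smad3) and 3 lower (Tgfb1, Tgfb3 and Tgfbi), against 14.9% and 18.4%. Most of these counts lie near the share of all genes called, so they set the 10 genes apart little from other genes, and each gene is described singly. The counts include Inhba, which passed the filter on low counts only through groups in which it is high. Both fibril comparisons of a cell type share their control libraries.

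**Figure D1:**
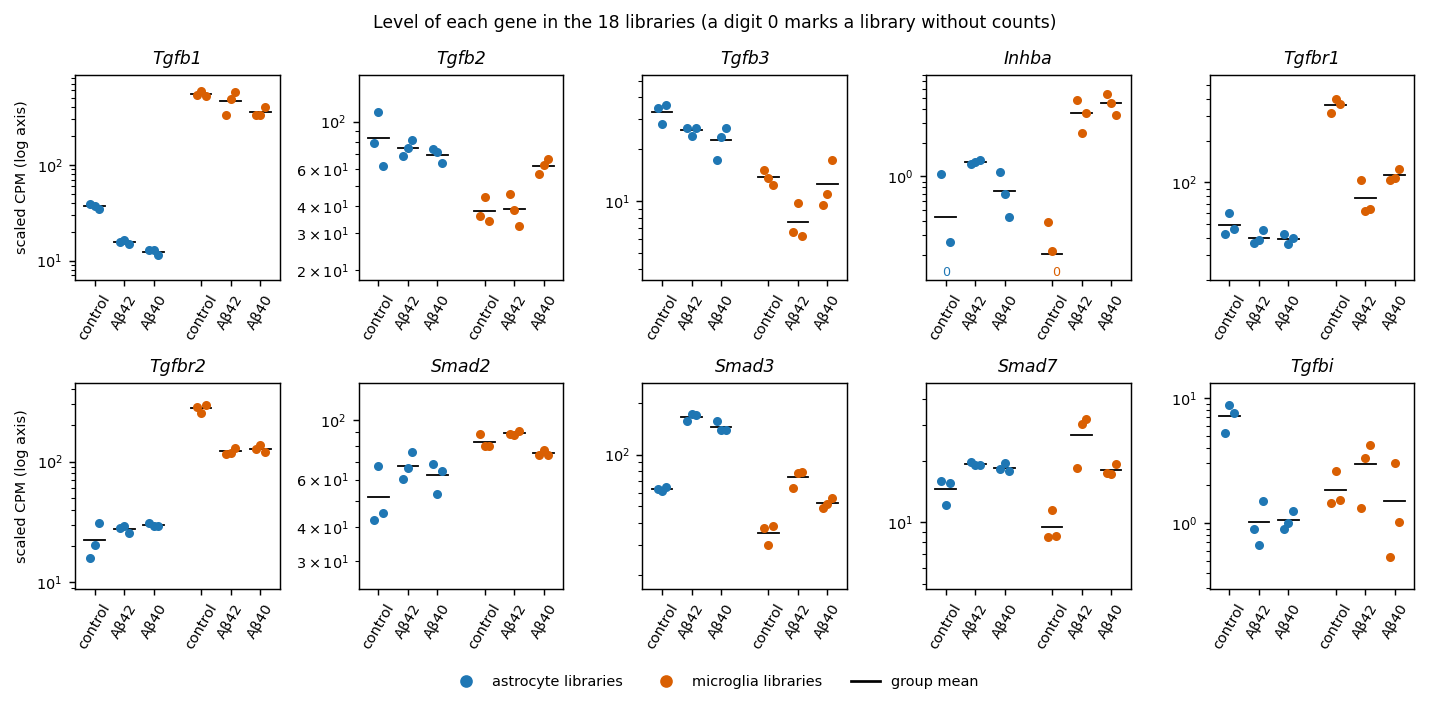
Scaled CPM of each gene (log axis, a different range in each panel) in the 18 libraries by treatment, with astrocyte libraries in blue, microglia libraries in orange and a bar at each group mean. Tgfb1, Tgfbr1 and Tgfbr2 were highest in untreated microglia, with group means of 546, 361 and 277 CPM, and Smad3 was highest in fibril-treated astrocytes.

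Tgfb1, which encodes the TGF-β form most expressed by immune cells, was measured at 532, 584 and 521 CPM in untreated microglia and at 39.2, 37.5 and 34.4 CPM in untreated astrocytes. With Aβ42, astrocytes had 15.7, 16.5 and 15.02 CPM, and with Aβ40 they had 12.96, 12.8 and 11.3 CPM. All 6 treated astrocyte libraries lay below all 3 controls. The change was -1.25 (SE 0.132, adjusted p = 2.52e-05) with Aβ42 and -1.59 (SE 0.132, adjusted p = 4.66e-06) with Aβ40. In microglia the levels were 335, 491 and 572 CPM with Aβ42, which overlap the controls, and 330, 334 and 404 CPM with Aβ40, which lie below them. Only the Aβ40 change was called in microglia (-0.62, SE 0.16, adjusted p = 0.00839), and that with Aβ42 was -0.24 (SE 0.158, adjusted p = 0.218), or -0.08 without Aβ42 replicate 1.

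Microglial RNA in the astrocyte cultures moved with Tgfb1. The 9 microglia markers summed to 347, 277 and 340 CPM in the astrocyte controls, to 22.5, 19.2 and 18.4 CPM with Aβ42 and to 16.4, 13.8 and 14.4 CPM with Aβ40, and all 9 were called lower with each fibril. The most abundant was Csf1r in the controls (115 CPM) and Itgam with fibrils (6.86 CPM with Aβ42 and 5.15 CPM with Aβ40), and none of the 9 was at 0 in all libraries of a group. In untreated astrocytes the summed markers were 5.01% of their level in untreated microglia, and Tgfb1 was 6.79% of its level there. With Aβ42 these shares were 1.13% and 3.37%, and with Aβ40 they were 0.722% and 3.48%. The part of microglial RNA in the fall of Tgfb1 in astrocyte cultures was not tested. In RNA of whole cultures, fewer cells of a type and less RNA per cell cannot be told apart.

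Tgfb2, the form known from developing neural tissue and glia, was more abundant in astrocytes, with 79.3, 111 and 62.1 CPM in the controls. The treated astrocyte libraries, at 63.5 to 81.7 CPM, lay within the range of the controls, and neither fibril's change was called. In microglia the controls had 36.0, 44.2 and 34.1 CPM, Aβ42 gave 45.8, 38.2 and 32.4 CPM, and Aβ40 gave 56.5, 62.5 and 66.8 CPM. The Aβ40 libraries lay above all other microglia libraries, with a change of 0.70 (SE 0.159, adjusted p = 0.00367) against control. Without astrocyte control replicate 2, the highest control, the astrocyte value with Aβ42 went from -0.18 to 0.09 and stayed uncalled.

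Tgfb3 had 34.8, 28.1 and 36.2 CPM in astrocyte controls and 15.2, 13.6 and 12.3 CPM in microglia controls. It was lower in microglia with Aβ42, at 6.55, 9.68 and 6.25 CPM (-0.84, SE 0.228, adjusted p = 0.00843), and was not called there with Aβ40 (-0.20, SE 0.251, adjusted p = 0.554). Without microglia Aβ42 replicate 3 the first of these had an adjusted p of 0.057. In astrocytes it was lower with Aβ40, at 17.4, 23.5 and 26.5 CPM (-0.57, SE 0.18, adjusted p = 0.0308), and the value with Aβ42 was -0.39 (SE 0.18, adjusted p = 0.12). The Aβ40 call ended in the fits without astrocyte control 1 or 3 or Aβ40 1 or 2, with adjusted p of 0.0776, 0.0889, 0.109 and 0.0624, with the replicate number as a block (0.057) and in a fit of only the groups compared (0.0747). Without astrocyte control 2 the Aβ42 value was called as well (-0.49, adjusted p = 0.0263).

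Inhba, the subunit of activin A, was close to the detection limit in untreated cells of both types and rose with both fibrils in microglia. The microglia controls had 3, 1 and 0 counts, while Aβ42 libraries had 11, 50 and 56 counts (4.80, 2.46 and 3.64 CPM) and Aβ40 libraries 20, 18 and 7 counts (5.38, 4.50 and 3.54 CPM). The ratio of summed counts, each divided by the summed library sizes, was 13.7 with Aβ42 (95% interval 5.199 to 51.0) and 20.9 with Aβ40 (7.62 to 80.0), where the intervals are Clopper-Pearson and cover counting error only. The fitted changes of 3.74 (SE 0.552, adjusted p = 0.000127) and 4.29 (SE 0.588, adjusted p = 8.8e-05) depend on the prior count at such low control counts, and leaving out 1 library moves them between 3.23 and 4.84 and between 3.78 and 5.39. Inhba passed the filter on low counts only through groups in which it is high, since the minimum was reached in 0 control libraries of microglia, and in astrocytes in 1 control, 3 Aβ42 and 1 Aβ40 libraries. The filter therefore favours a call for this gene in both cell types, and its tests are read with that limit. Astrocyte controls had 4, 0 and 4 counts, and Aβ42 libraries 20, 14 and 12 counts (1.29, 1.34 and 1.39 CPM). The Aβ42 value in astrocytes was 1.89 (SE 0.608, adjusted p = 0.031), with a ratio of summed counts of 3.90 (1.83 to 9.58). Leaving out 1 library moved the fitted value between 1.42 and 2.67. The call of Inhba with Aβ42 in astrocytes ended without astrocyte control 3 (adjusted p = 0.192) and without Aβ42 1, 2 or 3 (0.0672, 0.0691 and 0.065), with the replicate number as a block (0.0696) and in a fit of only the groups compared (0.0501), and Inhba is left out by the filter of 10 counts in every library. It also ended without both control 2 and Aβ42 3 (1.57, adjusted p = 0.0564), a choice made after seeing the data. With Aβ40 the astrocyte value was 0.99 (SE 0.653, adjusted p = 0.28).

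Tgfbr1, the signalling receptor kinase, fell further in microglia than Tgfbr2 with each fibril. Untreated microglia had 316, 399 and 368 CPM. Aβ42-treated microglia had 104, 62.4 and 64.4 CPM, and Aβ40-treated microglia had 104, 108 and 126 CPM. All treated microglia libraries lay below all controls, and among the Aβ42 libraries replicate 1 was the highest and close to the lowest Aβ40 library. The change was -2.29 (SE 0.193, adjusted p = 1.11e-06) with Aβ42, a 4.88-fold fall, and -1.68 (SE 0.191, adjusted p = 1.74e-05) with Aβ40, a 3.21-fold fall. Without microglia Aβ42 replicate 1 the first was -2.55. Astrocytes had 42.4, 60.4 and 46.0 CPM in controls, 36.4 to 45.3 CPM with Aβ42 and 35.8 to 42.6 CPM with Aβ40. The treated astrocyte libraries overlap the controls, with values of -0.33 (SE 0.158, adjusted p = 0.13) and -0.35 (SE 0.158, adjusted p = 0.119), and -0.17 and -0.19 without astrocyte control 2.

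Tgfbr2, which binds the ligand first, fell to a like extent with both fibrils in microglia. It went from 281, 254 and 296 CPM in controls to 116, 118 and 130 CPM with Aβ42 and 127, 136 and 119 CPM with Aβ40. The change was -1.20 (SE 0.103, adjusted p = 1.23e-06) with Aβ42 and -1.12 (SE 0.104, adjusted p = 3.25e-06) with Aβ40, and the treated groups overlap each other. In astrocytes the controls had 15.96, 20.2 and 31.2 CPM, and treated libraries had 25.5 to 31.1 CPM. Neither change was called in astrocytes (0.23, SE 0.213, and 0.34, SE 0.212, on the log2 scale). Without astrocyte control 3, the highest control, they were 0.59 (adjusted p = 0.0139) and 0.70 (adjusted p = 0.00642). The summed microglia markers also fell in the microglia cultures, from 6182, 6018 and 7003 CPM to 1903, 1555 and 1873 CPM with Aβ42 and 2086, 1953 and 2136 CPM with Aβ40. Of the 9 markers, 7 were called lower and 1 higher with Aβ42, and 8 lower and 1 higher with Aβ40. The most abundant was Csf1r (2772 CPM) in controls and Itgam with Aβ42 (778 CPM) and Aβ40 (850 CPM), and none of the 9 was at 0 in all libraries of a group. Their part in the fall of the receptors was not tested. In untreated astrocytes Tgfbr2 was at 8.11% and Tgfbr1 at 13.7% of the microglia level, beside 5.01% for the summed microglia markers, which fell to 1.13% and 0.722% with fibrils. The part of microglial RNA in the receptor values of astrocyte cultures, and in their response differences between the cell types, was not tested.

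Smad3, a transcription factor that the receptors activate, rose in every treated group. Astrocyte controls had 62.8, 61.5 and 64.7 CPM, and the treated astrocytes had 156, 173 and 169 CPM with Aβ42 and 156, 139 and 139 CPM with Aβ40. Microglia controls had 37.5, 30.0 and 38.3 CPM, with 63.8, 78.6 and 79.2 CPM after Aβ42 and 48.9, 51.8 and 55.6 CPM after Aβ40. No treated library overlapped its controls in either cell type. The changes in astrocytes were 1.37 (SE 0.11, adjusted p = 3.12e-06) with Aβ42 and 1.18 (SE 0.11, adjusted p = 1.05e-05) with Aβ40. Those in microglia were 1.06 (SE 0.128, adjusted p = 2.56e-05) with Aβ42 and 0.55 (SE 0.135, adjusted p = 0.00595) with Aβ40. All 4 stayed called under every alternative of scaling, test, filter and libraries.

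Smad2, the partner of Smad3, was not called in any fibril comparison. It had 42.6, 67.6 and 45.4 CPM in astrocyte controls and 88.3, 79.9 and 79.8 CPM in microglia controls, and 53.2 to 75.7 CPM and 73.8 to 91.0 CPM in the treated libraries of each. Astrocyte control 2, which stands apart, was the highest control, and without it the astrocyte values were called, at 0.59 (adjusted p = 0.00486) with Aβ42 and 0.47 (adjusted p = 0.0173) with Aβ40. With all libraries they were 0.36 (adjusted p = 0.161) and 0.25 (adjusted p = 0.339).

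Smad7, the inhibitor that the pathway itself induces, rose in microglia from 8.51, 11.4 and 8.60 CPM to 18.3, 30.3 and 31.9 CPM with Aβ42 and 17.5, 17.2 and 19.2 CPM with Aβ40. The changes were 1.56 (SE 0.193, adjusted p = 2.9e-05) and 0.92 (SE 0.218, adjusted p = 0.00468). Aβ42 replicate 1 lay with the Aβ40 libraries, below the other Aβ42 libraries. In astrocytes the controls had 15.96, 12.1 and 15.5 CPM and the treated libraries 17.9 to 19.7 CPM, which do not overlap. The values of 0.38 (SE 0.147, adjusted p = 0.0657) and 0.33 (SE 0.146, adjusted p = 0.114) were not called.

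Tgfbi, an extracellular matrix protein, fell in astrocytes from 5.23, 8.76 and 7.61 CPM to 0.902, 0.67 and 1.502 CPM with Aβ42 and 0.897, 0.9999 and 1.25 CPM with Aβ40. The treated libraries, with 7 to 20 counts each, lay below all controls. The changes were -2.89 (SE 0.302, adjusted p = 2.39e-05) with Aβ42 and -2.79 (SE 0.286, adjusted p = 2.25e-05) with Aβ40. Fibroblast markers also moved in the astrocyte cultures. Of the list of 7, 6 are in the tables, and their sum went from 179, 161 and 157 CPM to 84.1, 83.2 and 67.0 CPM with Aβ42 and 117, 118 and 103 CPM with Aβ40. With each fibril 2 of the 6 were called lower and 1 higher, the most abundant was Col1a1 in controls (78.8 CPM) and Col3a1 with fibrils (33.6 and 52.4 CPM), and none was at 0. Their part in the fall of Tgfbi, and that of the microglia markers given with Tgfb1, was not tested. In microglia Tgfbi had 2 to 68 counts a library and was not called, at 0.94 with Aβ42 (SE 0.408, adjusted p = 0.0697) and -0.12 with Aβ40 (SE 0.592, adjusted p = 0.898). Without microglia Aβ42 replicate 1 the former was 1.04 (adjusted p = 0.0164).

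**Figure D2:**
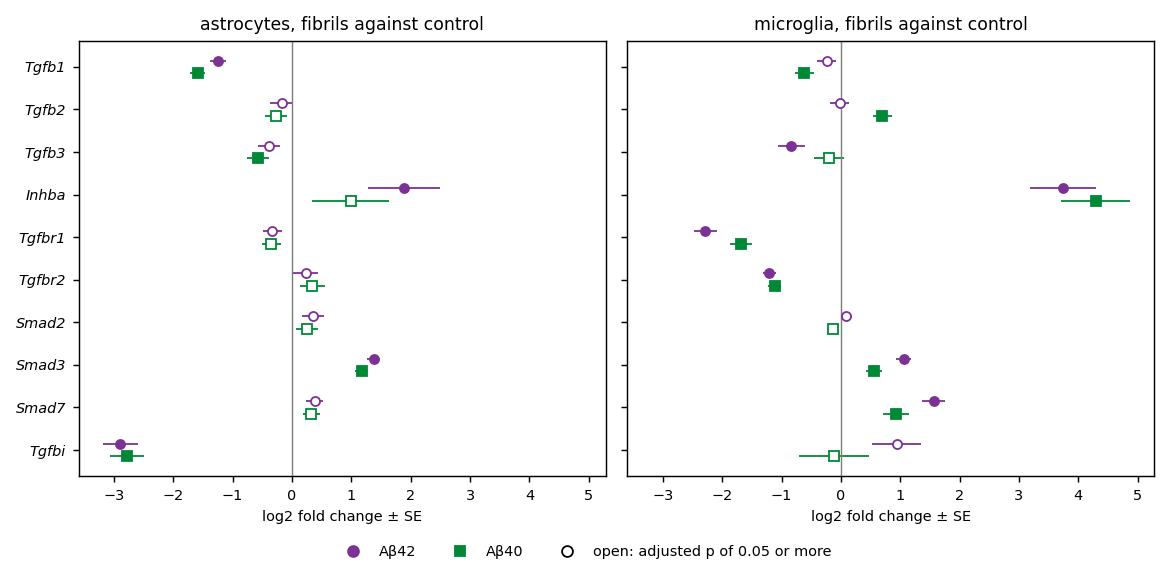
Fitted log2 fold change against control with its SE for each gene in astrocytes (left) and microglia (right), with circles for Aβ42, squares for Aβ40 and open symbols for changes that were not called. Tgfbr1 lies at -2.29 and -1.68 in microglia and at -0.33 and -0.35 in astrocytes, where it was not called, and Smad3 lies to the right of 0 in all 4 comparisons.

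The untreated cell types differed in 9 of the 10 genes. In astrocytes Tgfb2, Tgfb3, Smad3, Smad7 and Tgfbi were higher than in microglia, and Tgfb1, Tgfbr1, Tgfbr2 and Smad2 were lower, where 34.5% and 34.2% of the 11581 genes tested in all libraries were called in each direction. The largest differences were those of Tgfb1 (-3.89, SE 0.169, adjusted p = 2.09e-13), Tgfbr2 (-3.57, SE 0.177, adjusted p = 1.32e-12) and Tgfbr1 (-2.87, SE 0.187, adjusted p = 6.99e-11). Tgfbi (2.03, SE 0.377), Tgfb3 (1.27, SE 0.209), Tgfb2 (1.14, SE 0.183), Smad3 (0.83, SE 0.123) and Smad7 (0.63, SE 0.192) were higher in astrocytes, and Smad2 was -0.68 (SE 0.154). Inhba was near the detection limit in both and was not called (0.62, SE 0.952, adjusted p = 0.574).

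By group mean, Tgfb1 ranked microglia control, Aβ42 and Aβ40 (546, 466 and 356 CPM) before astrocyte control, Aβ42 and Aβ40 (37.0, 15.7 and 12.4 CPM), a span of 44.1-fold in which the libraries of neighbouring microglia groups overlap and those of neighbouring astrocyte groups do not. Tgfbr1 ranked microglia control, Aβ40 and Aβ42 (361, 113 and 76.8 CPM) before the astrocyte groups (49.6, 40.1 and 39.5 CPM), whose libraries overlap. For Tgfbr2 the order was microglia control (277 CPM), the fibril-treated microglia (127 and 121 CPM, which overlap) and the astrocyte groups (29.8, 27.6 and 22.4 CPM, which overlap). The order of Smad3 was astrocyte Aβ42, astrocyte Aβ40, microglia Aβ42, astrocyte control, microglia Aβ40 and microglia control (166, 145, 73.8, 63.0, 52.1 and 35.2 CPM), in which only microglia Aβ42 and astrocyte control overlap. Smad2 spanned 1.72-fold between its highest and lowest group means, Tgfb2 2.21-fold, Smad7 2.82-fold, Tgfb3 4.41-fold and Tgfbi 7.03-fold, and several neighbouring groups of each overlap. No span is given for Inhba, whose lowest group is at the detection limit.

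The response to fibrils differed between the cell types when the difference was tested itself. For Aβ42, 2 genes had a higher log2 fold change in astrocytes than in microglia (Tgfbr1 and Tgfbr2) and 3 a lower one (Tgfb1, Smad7 and Tgfbi), against 17.9% and 19.3% of all genes. For Aβ40, 3 were higher (Tgfbr1, Tgfbr2 and Smad3) and 4 lower (Tgfb1, Tgfb2, Inhba and Tgfbi), against 16.5% and 16% of all genes, where Inhba passed the filter only through groups in which it is high. The difference for Tgfbr1 was 1.96 (SE 0.253, adjusted p = 6.53e-06) with Aβ42 and 1.35 (SE 0.252, adjusted p = 0.000372) with Aβ40. That for Tgfbr2 was 1.43 (SE 0.231, adjusted p = 7.66e-05) and 1.47 (SE 0.231, adjusted p = 6.65e-05). For Smad7 it was -1.17 (SE 0.254, adjusted p = 0.00128) with Aβ42 and -0.58 (SE 0.266, adjusted p = 0.105) with Aβ40. For Smad3 it was 0.32 (SE 0.17, adjusted p = 0.147) with Aβ42, so that its rises in the cell types were not shown to differ, and 0.64 (SE 0.173, adjusted p = 0.00761) with Aβ40. The Aβ40 difference of Inhba (-3.31, SE 1.06) was lost without astrocyte control 1 (adjusted p = 0.111) or microglia control 3 (adjusted p = 0.0542), and that of Tgfbi (-2.65, SE 0.692) without microglia Aβ40 replicate 2 (-1.44, adjusted p = 0.285). Without astrocyte control 2, Smad2 differed as well with each fibril (0.50, adjusted p = 0.0215, and 0.63, adjusted p = 0.00738), and Smad7 with Aβ40 (-0.68, adjusted p = 0.0467).

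**Figure D3:**
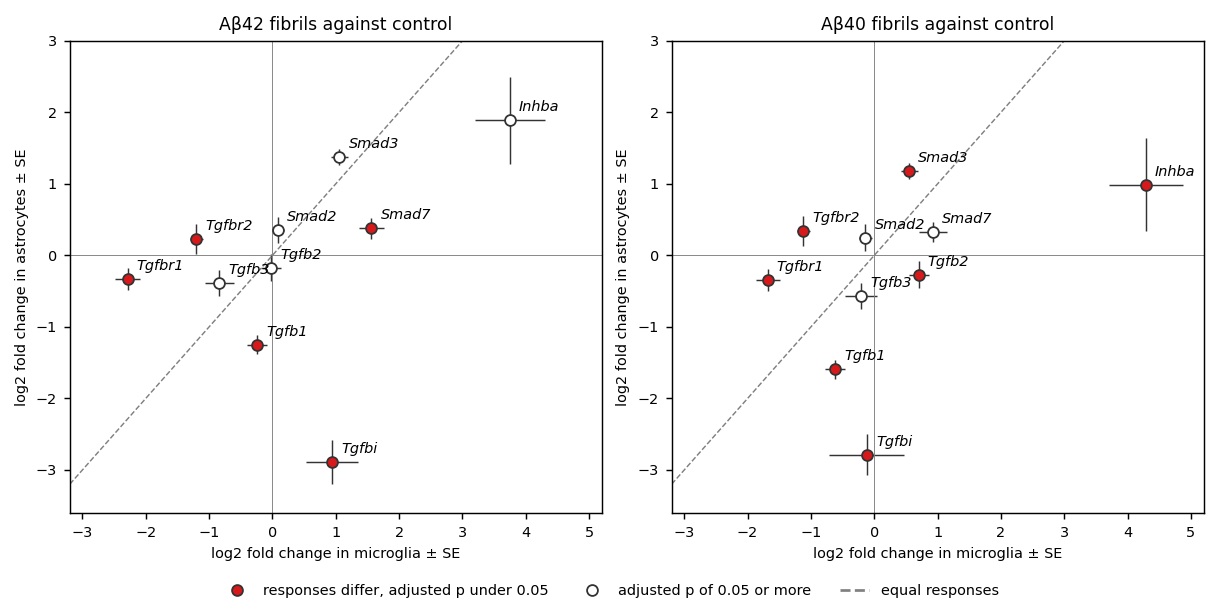
Log2 fold change against control in astrocytes (vertical) and microglia (horizontal) with SE, for Aβ42 (left) and Aβ40 (right), where filled points mark genes whose responses differ between cell types and the dashed line marks equal responses. Tgfbr1 and Tgfbr2 lie to the left of the line and Tgfb1 and Tgfbi below it with both fibrils.

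The fibrils were also compared with each other. In astrocytes none of the 10 genes was called with edgeR, where 0.0599% of all genes were higher and 0.0257% lower with Aβ42 than with Aβ40. DESeq2 called 0 of the 10 as well. Before adjustment, edgeR gave 1 of them, Tgfb1, a p under 0.05, as it gave 6.30% of all genes. Tgfb1 was at 0.34 (SE 0.131, adjusted p = 0.611), with the Aβ42 libraries above the Aβ40 libraries. A p that misses the threshold does not show that the fibrils act alike, and the intervals of 2 SE on either side reach from 0.08 to 0.60 for Tgfb1, from 0.01 to 1.79 for Inhba (0.90, without overlap of libraries), from -0.25 to 0.47 for Smad2 and from -0.02 to 0.41 for Smad3.

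In microglia, Smad3 (0.51, SE 0.131, adjusted p = 0.0272) and Smad7 (0.64, SE 0.194, adjusted p = 0.0398) were higher with Aβ42 than with Aβ40, against 11.3% of all genes, and Tgfb2 (-0.72, SE 0.159, adjusted p = 0.019) and Tgfbr1 (-0.60, SE 0.193, adjusted p = 0.0465) were lower, against 9.01%. The Smad7 libraries of the groups overlap through Aβ42 replicate 1. Leaving that library out gave 7 calls in place of 4, with Tgfb1 (0.55, adjusted p = 0.000361), Smad2 (0.21, adjusted p = 0.0425) and Tgfbi (1.15, adjusted p = 0.0381) added as higher with Aβ42. Leaving out any other library of these groups (Aβ42 replicate 2 or 3, or Aβ40 replicate 1, 2 or 3) gave 0 calls. Over all genes, 2198 were called with every library, 6004 without Aβ42 replicate 1, 121 without Aβ42 replicate 2, 99 without Aβ42 replicate 3, and 127, 154 and 153 without Aβ40 replicate 1, 2 and 3. The directions of the 4 called genes held in each of these fits. With the replicate number as a block the calls of Smad3, Smad7 and Tgfbr1 ended (adjusted p of 0.053, 0.0688 and 0.0794), and in a fit of only the groups compared those of Smad3, Smad7, Tgfb2 and Tgfbr1 ended (0.0704, 0.0905, 0.0635 and 0.103).

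**Figure D4:**
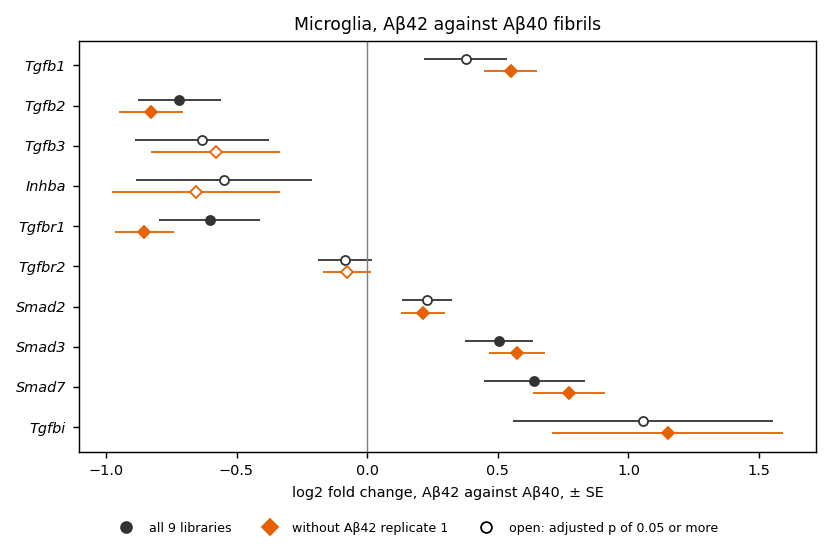
Log2 fold change of Aβ42 against Aβ40 fibrils in microglia with SE, from all 9 libraries (circles) and without Aβ42 replicate 1 (diamonds), where open symbols mark differences that were not called. Without that library Tgfbr1 moves from -0.60 to -0.85 and the SE of Tgfb1 shrinks from 0.16 to 0.102.

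Other genes of the pathway were counted by list, each beside the median of all tested genes, which was between -0.01 and 0.01 in these 4 comparisons. The counts describe the lists and were not tested against other genes. Among all genes the calls higher and lower were 16.5% and 20.4% for Aβ42 and 14.9% and 18.4% for Aβ40 in astrocytes, and 27.1% and 26.6%, and 19.6% and 21.4%, in microglia. Some listed genes that are near 0 in controls passed the filter only through treated libraries, which favours calls of higher. Others, and some of the microglia markers, are near 0 in treated libraries and passed only through controls, which favours calls of lower. The list of other ligands held Bmp1, which encodes a protease and is left out of the counts here. Of the others, 8 were tested in astrocytes and 7 in microglia. In astrocytes 3 were called higher and 2 lower with each fibril (medians -0.01 and -0.04), and in microglia 4 higher and 1 lower with Aβ42 and 5 higher and 1 lower with Aβ40 (medians 1.66 and 1.35). Gdf15, a stress-induced cytokine, went from 2.26 to 54.8 and 30.3 CPM in astrocytes with Aβ42 and Aβ40, and from 25.2 to 505 and 185 CPM in microglia. Inhbb, the other activin subunit, fell in astrocytes from 43.7 to 12.8 CPM (-1.80, SE 0.134) and 18.7 CPM (-1.24, SE 0.13), and was at 3 to 4 counts in microglia controls (0.559 CPM) and at 10.7 and 5.71 CPM in treated microglia. Bmp2 rose in both cell types, from 1.96 to 7.03 and 6.68 CPM in astrocytes and from 4.44 to 32.1 and 25.7 CPM in microglia. Bmp7 fell in both, by 1.45 and 1.36 in astrocytes and by 1.14 and 0.85 in microglia on the log2 scale. Its astrocyte levels were low, at 2.275 CPM in controls (6, 15 and 29 counts), 0.8002 CPM with Aβ42 and 0.829 CPM with Aβ40. Bmp6 rose in microglia (1.66 and 1.35) and in astrocytes (0.39 and 0.55).

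Among other receptors, 10 of 12 were tested in astrocytes, with 1 higher and 3 lower with Aβ42 and 2 higher and 3 lower with Aβ40 (medians 0.17 and 0.09). In microglia 8 were tested, with 1 higher and 3 lower with Aβ42 and 1 higher and 1 lower with Aβ40 (medians -0.30 and -0.11). Eng, a co-receptor known from endothelium, fell in astrocyte cultures from 19.9 to 1.51 and 1.35 CPM, and was not called in microglia, where it was at 157 CPM untreated. In the astrocyte cultures the summed microglia markers fell from 321 to 20.02 and 14.9 CPM, and the endothelial markers from 18.2 to 12.5 and 13.5 CPM. The part of such cells in the fall of Eng was not tested. Acvr1b, the type I activin receptor, rose in astrocytes from 17.5 to 48.8 CPM (1.39, SE 0.227) and 45.3 CPM (1.29, SE 0.226). Bmpr1b fell in astrocytes from 1.52 to 0.366 and 0.462 CPM. Acvrl1 fell in microglia from 23.1 to 6.39 and 6.73 CPM, and in astrocytes rose with Aβ40 (1.07, SE 0.358) and had 0.62 (SE 0.381) with Aβ42. Its astrocyte levels were close to the detection limit, at 1.02 CPM in controls (1, 7 and 19 counts), 1.75 CPM with Aβ42 and 2.40 CPM with Aβ40. Tgfbr3, which presents TGF-β to the signalling receptors, rose in microglia from 12.6 to 29.4 CPM (1.20, SE 0.125) and 37.6 CPM (1.57, SE 0.131), the direction opposite to Tgfbr1 and Tgfbr2. Of the 5 other SMADs, 1 was called in astrocytes with each fibril, Smad9, which fell from 12.9 to 4.69 and 5.86 CPM (median of the list 0.22 and 0.20). In microglia, of the 4 tested, 1 was higher and 1 lower with Aβ42 and none was called with Aβ40 (medians -0.09 and -0.01). Smad6, an inhibitor like Smad7, was the higher one (1.26, SE 0.283, adjusted p = 0.00265).

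Genes of the latent complex and its activation moved in both directions in astrocytes, with 5 higher and 7 lower of 17 with Aβ42 and 5 higher and 6 lower with Aβ40 (medians -0.03 and -0.01). In microglia 10 of 18 were higher and 3 lower with Aβ42, and 8 higher and 3 lower with Aβ40 (medians 0.78 and 0.41). Ltbp1, a latent TGF-β binding protein, rose in astrocytes from 59.0 to 179 CPM (1.57, SE 0.138) and 147 CPM (1.30, SE 0.137), and Ltbp2 fell from 97.5 to 18.4 and 25.6 CPM. Mmp9, a protease, went from 0.877 to 110 and 69.3 CPM in astrocytes and from 439 to 5611 and 6491 CPM in microglia. Mmp2 rose in astrocytes (1.72 and 1.24), and Mmp14 rose in microglia from 48.5 to 830 and 760 CPM. Lrrc32, which holds latent TGF-β on the cell surface, went in microglia from 0.244 to 18.6 and 12.6 CPM. Itgb5, an integrin subunit, fell in microglia from 433 to 52.7 and 39.4 CPM.

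Of 13 extracellular inhibitors tested in astrocytes, 3 were called higher and 7 lower with Aβ42 (16.5% and 20.4% of all genes), and 2 higher and 6 lower with Aβ40 (14.9% and 18.4%), with medians of -0.87 and -0.47. In microglia only 7 of 14 passed the filter. With Aβ42 the calls were 6 higher and 0 lower (27.1% and 26.6% of all genes) and with Aβ40 5 higher and 0 lower (19.6% and 21.4%). Fst and Dcn are among them, had at most 7 counts in any microglia control and passed only through treated libraries, so the direction of this count is in part set by the filter. Fst, the activin inhibitor follistatin, rose in astrocytes from 11.8 to 56.5 CPM (2.21, SE 0.165) and 39.8 CPM (1.72, SE 0.163), and was 0.0873 CPM in untreated and 4.48 and 3.04 CPM in treated microglia. Chrdl1, an inhibitor of bone morphogenetic proteins, fell in astrocytes from 193 to 40.0 and 71.0 CPM. Bgn and Bambi fell in astrocytes (-1.73 and -1.82, and -1.02 and -1.26), and Bambi, a decoy receptor, rose in microglia (0.77 and 0.74). Dcn, a proteoglycan that binds TGF-β, went in microglia from 0.474 to 79.6 and 71.8 CPM. It is also among the fibroblast markers, which summed to 77.4, 81.4 and 66.1 CPM in microglia controls, 149, 189 and 186 CPM with Aβ42 and 138, 141 and 143 CPM with Aβ40. Dcn itself makes up 79.6 of the 175 CPM with Aβ42 and 71.8 of the 140 CPM with Aβ40, and Col1a1 was the most abundant in controls (49.9 CPM). Of the 5 markers tested in microglia, Dcn, Lum (2.42) and Col1a1 (0.55) were called higher with Aβ42 and none lower, and with Aβ40 Dcn and Lum (2.26) were higher and Col3a1 lower (-2.33). The part of fibroblasts was not tested. Htra1 rose in microglia from 53.2 to 185 and 132 CPM, as did Nbl1 with Aβ42 (1.64, SE 0.23), while Nbl1 had 0.23 (SE 0.256) with Aβ40. Of 7 intracellular inhibitors, without Usp15, which is known to support the receptors, 2 were higher and 0 lower in astrocytes with Aβ42, and 1 higher and 1 lower with Aβ40 (medians 0.18 and 0.10). In microglia 3 were higher and 3 lower with Aβ42 and 2 higher and 3 lower with Aβ40 (medians 0.07 and -0.03). Tgif1, a co-repressor of SMADs, rose in microglia (1.82 and 1.63) and Tgif2 fell (-1.22 and -2.15).

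Of 22 known target genes of SMAD2 and SMAD3, 10 were higher and 5 lower in astrocytes with Aβ42 and 9 higher and 4 lower with Aβ40 (medians 0.40 and 0.45). In microglia 19 were tested, with 11 higher and 4 lower with Aβ42 and 9 higher and 5 lower with Aβ40 (medians 0.56 and 0.61). Cdkn2b, a cell cycle inhibitor, rose in astrocytes from 16.3 to 99.2 and 67.3 CPM and in microglia from 23.6 to 187 and 174 CPM. Tgm2, a transglutaminase, rose in microglia from 7.60 to 293 and 237 CPM, and Col4a1 from 24.9 to 216 and 164 CPM. Acta2 fell from 47.3 to 4.63 and 7.38 CPM in astrocytes and from 33.0 to 1.75 and 2.06 CPM in microglia, and Tagln from 851 to 120 and 249 CPM in astrocytes. Acta2 is also a marker of mural cells, whose 5 markers summed to 141 CPM in untreated astrocytes and 60.4 CPM in untreated microglia, 154 and 149 CPM in treated astrocytes and 12.97 and 14.7 CPM in treated microglia. The astrocyte sum hides opposite changes, since Pdgfrb rose from 51.3 to 133 and 126 CPM while Acta2 and Myh11 (-1.44 and -1.42) fell, and in untreated microglia Acta2 is 33.0 of the 60.4 CPM. The part of such cells was not tested, and many of these targets also answer to other signals.

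Most microglial genes known to need TGF-β were lower in treated microglia, with 11 of 13 lower, 1 higher and 1 not called with each fibril, where 26.6% of all genes were lower with Aβ42 and 21.4% with Aβ40 (medians of the list -2.85 and -3.34). Gpr34 went from 154 CPM to 0.547 and 0.42 CPM, Csf1r, the receptor for colony stimulating factor, from 2772 to 191 and 185 CPM (-3.87, SE 0.133, and -3.90, SE 0.134), and Cx3cr1, the fractalkine receptor, from 40.9 to 0.336 and 0.263 CPM. Gpr34 and Cx3cr1 lay below the minimum of the filter in every treated microglia library and passed only through controls. The filter therefore favours calls of lower for such genes. In astrocyte cultures, where these genes also stand for the microglia that remain, 8 of 12 were lower and 1 higher with Aβ42 and 7 lower and 1 higher with Aβ40 (medians -2.11 and -2.08). Csf1r went there from 115 to 4.71 and 2.79 CPM, and C1qa, a complement subunit, from 44.2 to 0.312 and 0.233 CPM. Cx3cr1 and Gpr34 went from 24.4 and 8.56 CPM to at most 0.0417 CPM in a treated group of astrocytes. C1qa, Cx3cr1 and Gpr34 passed the filter in astrocytes only through controls, which favours calls of lower there as well. Of the 13 genes of this list in the tables, 5 also serve as microglia markers.

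**Figure D5:**
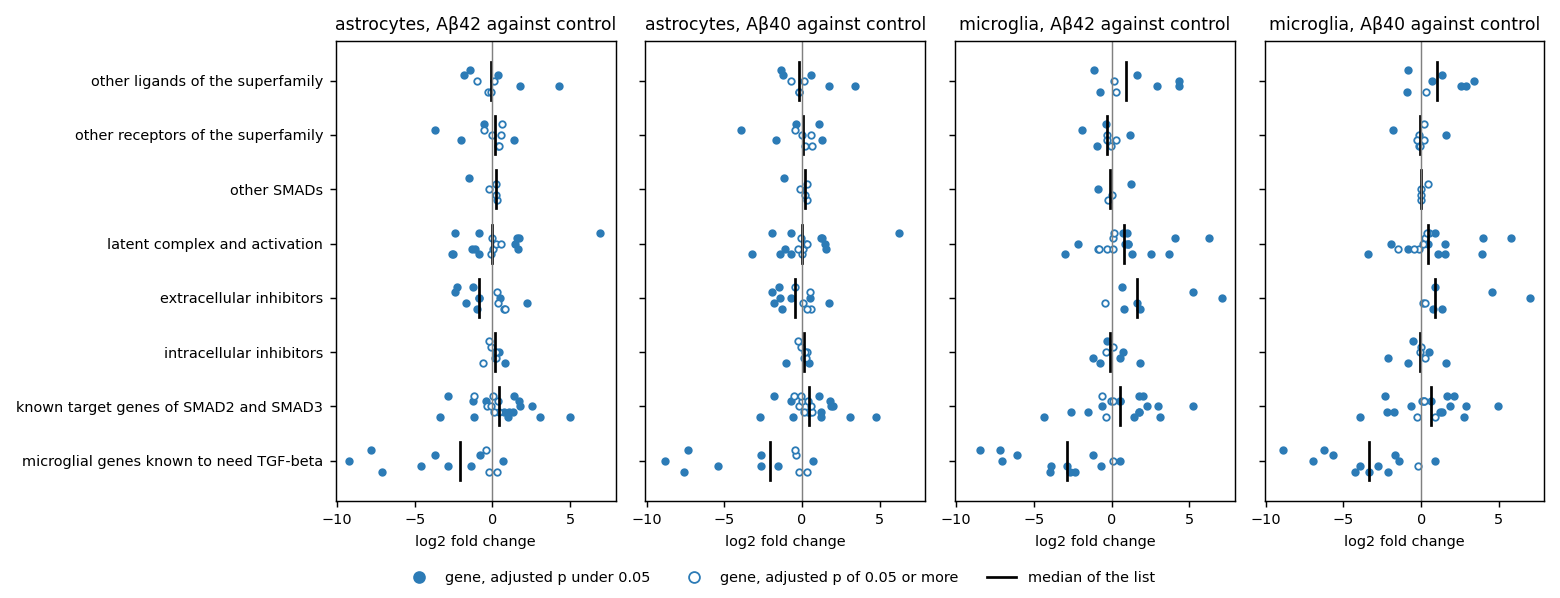
Log2 fold change of each gene of 8 lists (points, filled where called) with the list's median (bar), in the 4 comparisons of fibrils with control, drawn with Bmp1 and Usp15 kept in their lists. Most microglial genes known to need TGF-β lie to the left of 0, with medians of -2.85 and -3.34 in microglia, and the target genes of SMAD2 and SMAD3 lie on both sides.

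Markers of the labelled cell types were present in their cultures. Astrocyte markers summed to 9052 CPM in untreated astrocytes, led by Gfap (2652 CPM), and to 291 CPM in untreated microglia. They were 5601 and 6198 CPM in astrocytes with Aβ42 and Aβ40, where 6 of 9 were lower with each fibril and 2 and 3 higher. In microglia they were 295 and 275 CPM. The other markers in astrocytes (control, Aβ42 and Aβ40) summed to 210, 85.3 and 94.7 CPM for 6 neuronal genes, 2108, 1298 and 1326 CPM for 9 genes of the oligodendrocyte lineage, 18.2, 12.5 and 13.5 CPM for 6 endothelial genes, and 19.9, 4.72 and 4.11 CPM for 4 genes of perivascular macrophages. In microglia the same sums were 311, 353 and 414 CPM, 2380, 2905 and 2747 CPM, 188, 53.6 and 104 CPM, and 1191, 422 and 340 CPM. The endothelial marker Cldn5 and the macrophage marker Cd163 were at 0 in all 6 groups, the mural marker Rgs5 was at 0 in all groups but untreated astrocytes, Kcnj8 was at 0 in all microglia groups, and Flt1 made up 174 of the 188 CPM of endothelial markers in untreated microglia.

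The genes whose log2 levels followed 7 of the 10 most closely over the 18 libraries, among 11581 genes, were taken by Pearson r, as a description of libraries that share cell type and treatment. They were Vav1, Fcgr1a and Trpv2 for Tgfb1 (r of 0.995, 0.994 and 0.993), Zfhx4, Rnd3 and Cdkn1b for Tgfb2 (0.970, 0.963 and 0.956), and Zhx3, Fam84a and Prrt1 for Tgfb3 (0.956, 0.946 and 0.941). For Inhba they were Kcnq3, Abcb1a and Ppp1r15a (0.940, 0.938 and 0.930), and for Tgfbr1 Klhl5, Clic2 and Fgd4 (0.987, 0.985 and 0.984). Those of Smad3 were Tf, Ssu72 and Ptges2 (0.983, 0.978 and 0.976), and those of Tgfbi were Cbln1, Tril and Fbln5 (0.879, 0.876 and 0.864).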

How the data were processed

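Per the labels, 18 stranded mRNA libraries were made, and the authors deposited 1 table of read counts per library, whole numbers by gene symbol that are not normalized. The submitters' processing notes name STAR, Salmon, DESeq2 and the rat build rn5. Reads on no gene or on more than 1 gene (26.0% to 34.2% in astrocytes, 21.7% to 24.5% in microglia) were left out. Counts on genes ranged from 3674043 to 19013919 in astrocytes and from 2271834 to 22274367 in microglia. With edgeR 4.0.16 in R 4.3.3, counts were scaled by TMM, filtered by filterByExpr and fitted by glmQLFit without covariates, with glmQLFTest and Benjamini-Hochberg adjustment over all tested genes. The 9 libraries of a cell type were fitted together, and all 18, on 16704 shared symbols, for differences between cell types. No replicates agreed within sampling noise (lowest chi-square per degree of freedom 1.76). In simulated data, 69%, 85% and 46% of 100 genes changed by 2-fold were called in astrocytes, in microglia and as differences between the cell types. Of those changed by 4-fold, 99%, 100% and 96% were called. Far fewer genes were changed there than were called in the same comparisons of the real data, and only genes above a minimum mean count. The shares therefore do not give the rate of missed changes in these data. The members and lists were chosen with earlier results of these data known.

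All 10 genes were tested in every comparison, and those not named in a comparison were not called there. From each other list, the text names genes called with a fold of 2 or more and no overlap of libraries in a fibril comparison, at most 4 with the smallest p in each cell type (some genes that this rule takes are left out), and for 7 of the 10 genes, chosen by hand, the 3 genes with the highest r (prior count 2). Other genes are named as markers of a list that were the most abundant, absent or called, chosen after their values were seen. Gdf5, Itgav, Ski, Skil, Trim33, Siglech, Fcrls and Col6a3 did not match a symbol used here, and Ccn1 and Ccn2 were matched as Cyr61 and Ctgf. Alternatives were DESeq2 1.42.0 size factors, library totals, DESeq2's Wald test, no filter, 10 counts in every library, a block for the replicate number, fits of only the groups compared, fold thresholds of 2 and 5, and omitting single libraries. Leaving out the astrocyte libraries with another form of file name, and leaving Bmp1 and Usp15 out of their lists, were chosen after seeing the data.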

Additional observations from a re-analysis of the deposited data

Results flagged for a closer look

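The responses of 10 genes to fibrils were compared between astrocytes and microglia by a test of the difference itself (log2 fold change in astrocytes minus that in microglia, edgeR, adjusted over all genes), and 5 with Aβ42 and 7 with Aβ40, or 12 differences, passed it, where 37.3% and 32.5% of all genes did. With Aβ42 they were -1.01 for Tgfb1 (SE 0.219), 1.96 for Tgfbr1 (SE 0.253), 1.43 for Tgfbr2 (SE 0.231), -1.17 for Smad7 (SE 0.254) and -3.82 for Tgfbi (SE 0.537). With Aβ40 they were -0.96 for Tgfb1 (SE 0.22), -0.96 for Tgfb2 (SE 0.257), -3.31 for Inhba (SE 1.06), 1.35 for Tgfbr1 (SE 0.252), 1.47 for Tgfbr2 (SE 0.231), 0.64 for Smad3 (SE 0.173) and -2.65 for Tgfbi (SE 0.692). Inhba passed the filter on low counts only through groups in which it is high, and its call ended without astrocyte control 1 (adjusted p = 0.111) or microglia control 3 (0.0542). That of Tgfbi with Aβ40 ended without microglia Aβ40 replicate 2 (-1.44, adjusted p = 0.285). The receptors fell in microglia and were not called in astrocytes, and Tgfb1 fell further in astrocyte cultures, in which the summed microglia markers fell from 321 to 20.02 and 14.9 CPM. The part of those markers was not tested.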

How the results depend on the processing

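Fold thresholds apply to counts of calls and are given separately below. Among the other alternatives, of 669 for called values of the 10 genes, 625 kept direction and call, 44 lost the call and 0 reversed. Of 630 for values not called, 600 stayed, 15 gained a call and 15 reversed. Leaving out 1 replicate at a time, the genes called of 10 ranged from 3 to 6 for astrocyte Aβ42 (4 with all libraries), 3 to 5 for Aβ40 (4) and 0 to 0 between fibrils (0). In microglia they ranged from 5 to 7 for Aβ42 (6), 7 to 7 for Aβ40 (7) and 0 to 7 between fibrils (4), where 7 is without Aβ42 replicate 1 and 0 without any other fibril library. They ranged from 9 to 9 between untreated cell types (9), 5 to 6 for the Aβ42 response (5) and 6 to 9 for the Aβ40 response (7). The filter of 10 counts in every library left 2 for astrocyte Aβ42.

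A threshold of 2-fold left 3 for microglia Aβ40, 0 between fibrils in microglia and 4 for the Aβ40 response. One of 5-fold left 1 for each fibril in each cell type, 0 between fibrils in microglia, 3 between untreated cell types, 1 for the Aβ42 response and 2 for the Aβ40 response.

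The replicate number as a block gave 3, 3 and 0 of the 10 genes in astrocytes (Aβ42, Aβ40, between fibrils), 6, 7 and 1 in microglia, 9 between untreated cell types and 5 and 7 for the responses. With the block 3644, 3209 and 0 of all genes were called in astrocytes and 5431, 4191 and 752 in microglia, against 4321, 3888, 10, 5820, 4445 and 2198 without it. Libraries of the same number in different groups had r of deviations from -0.53 to 0.36 in astrocytes and -0.19 to 0.22 in microglia. These values do not show that the numbers pair the samples. They cannot exclude it either, with 9 such pairs per cell type, some of them from libraries that stand apart. The highest r across astrocyte groups, 0.53, was between control 2 and Aβ42 3, the libraries of other file names, and Aβ40 1 deviated with both (0.49 and 0.51). Aβ42 1 and Aβ40 2 also deviated alike (0.49). Fitting only the groups compared gave 0 of the 10 and 106 genes between fibrils in microglia, so these 4 calls depend on the control libraries and on the choice of fit.

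Between fibrils in astrocytes 141 genes were called by DESeq2's Wald test, 6 with 10 counts in every library, 265 with only the groups compared and 120 without the libraries of other file names, with 0 of the 10 each time. Library totals moved the median of all genes between untreated cell types from 0.00 to 0.28 and the calls from 3997 higher and 3966 lower to 5047 and 3017, and no gene of the 10 changed direction.

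The reversed values were all uncalled. Tgfb2 with Aβ42 in astrocytes (-0.18) ranged from -0.36 to 0.08938, the latter without control 2. Tgfbr1 between fibrils in astrocytes (0.02) ranged from -0.07713 to 0.08583, with -0.07713 without Aβ42 3 and -0.04 without Aβ40 2, and Tgfbi (-0.10) from -0.40 to 0.10, with 0.10 without Aβ42 2 and 0.05 without Aβ40 3. Tgfb2 with Aβ42 in microglia (-0.02) ranged from -0.13 to 0.12, with 0.12 without Aβ42 3 and 0.10 without control 2, and was 0.005489 with only the groups compared. Tgfbi with Aβ40 in microglia (-0.12) ranged from -1.31 to 0.37, with 0.37 without Aβ40 1, 0.16 without control 2 and 0.02 without Aβ40 3. Inhba between untreated cell types (0.62) ranged from -0.07049 to 1.73, and Tgfb2 in the Aβ42 response (-0.16) from -0.34 to 0.11.

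The list of other ligands with Bmp1 kept had 2 lower in microglia with each fibril in place of 1, and medians of 0.95 and 1.03 in place of 1.66 and 1.35.

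Leaving out astrocyte control 2 and Aβ42 3, whose files are named in another form, was chosen after seeing the data. It gave 5, 5 and 0 of the 10, with Tgfb2 at 0.02071 with Aβ42 and Tgfbr1 at -0.07483 between fibrils.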
